A study of Mus musculus with 15 samples.

Results

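Polycomb proteins keep developmental genes silent in differentiated cells. This account follows the mRNAs of 10 Polycomb repressor genes in mouse striatum, namely Ezh1, Ezh2, Eed, Suz12, Rbbp4, Jarid2, Cbx2, Bmi1, Rnf2 and Sfmbt2. They were found by matching the Ensembl identifier of each row, without its version, to these symbols. All 10 were among the 54232 genes of the count table, and all 10 were also among the 18278 genes with enough reads to be tested.

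Each of the 15 libraries holds striatal RNA of a different mouse, all 6 months old. The labels name 3 genotypes, with 7 WT mice, 4 E1 mice and 4 KI-96 mice. The title speaks of Huntington's disease knock-in mice and of toxicity from RAN translation, in which an expanded repeat is translated without a start codon. The labels describe neither the E1 nor the KI-96 allele further, and they give no treatment, sex, strain or batch.

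Total counts ran from 14678565 to 26388542 per library. All 10 markers of spiny projection neurons, the principal cells of the striatum, were read in every library, the lowest value being 110 CPM (counts scaled to a common library size) for Tac1. Reads of 4 Y-linked genes summed to over 100 in 6 of 7 WT libraries, and WT replicate 1 and all 8 mutant libraries held at most 2 of them. Sex and genotype therefore cannot be told apart against WT, apart from what WT replicate 1 shows, while E1 and KI-96 are alike in this respect. Cortical neuron markers were high in 3 libraries, WT replicate 3 and E1 replicates 2 and 3, and KI-96 replicate 3 stood apart on the first principal component.

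Polycomb repression rests on 2 main enzyme complexes. PRC2 places methyl groups on lysine 27 of histone H3 through Ezh1 or Ezh2, and PRC1 binds that mark through a Cbx protein and attaches ubiquitin to histone H2A through Rnf2 or Ring1. A DNA-binding complex called PhoRC, built from Yy1 and an Sfmbt protein, is the counterpart of the fly complex that recruits them. In adult neurons PRC2 is known to hold developmental and cell death genes silent, and in dividing progenitors Ezh2 is the prominent methyltransferase.

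The members differed far more from each other than between genotypes. To compare genes with each other, CPM was divided by the length of merged exons, giving CPM per kb. In WT striatum Bmi1, the RING partner of canonical PRC1, stood highest at 13.8 ± 1.18 CPM per kb (SD, n = 7). The histone-binding PRC2 subunit Rbbp4 followed at 10.5 ± 0.507 and the methyltransferase Ezh1 at 10.4 ± 0.746. Suz12, the scaffold of PRC2, stood at 8.63 ± 0.762 CPM per kb.

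The catalytic PRC1 subunit Rnf2 was at 5.59 ± 0.329 CPM per kb, the PRC2 cofactor Jarid2 at 4.83 ± 0.210 and Eed, which reads the PRC2 mark, at 4.29 ± 0.716. The lowest were Ezh2 at 1.45 ± 0.231, the chromodomain protein Cbx2 at 1.28 ± 0.214 and Sfmbt2 at 0.387 ± 0.106 CPM per kb. In this order Bmi1 lay above Rbbp4 in every WT library. Rbbp4, Ezh1 and Suz12 overlapped one with the next, as did Rnf2, Jarid2 and Eed, and Ezh2 and Cbx2. Between Suz12 and Rnf2, Eed and Ezh2, and Cbx2 and Sfmbt2 the ranges did not meet. With the longest transcript as the length Rbbp4 (19.7) and Ezh1 (18.3) lay above Bmi1 (15.3), Eed was at 7.94 and Ezh2 at 3.46 CPM per kb, so the order at the top rests on the length used.

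**Figure D1:**
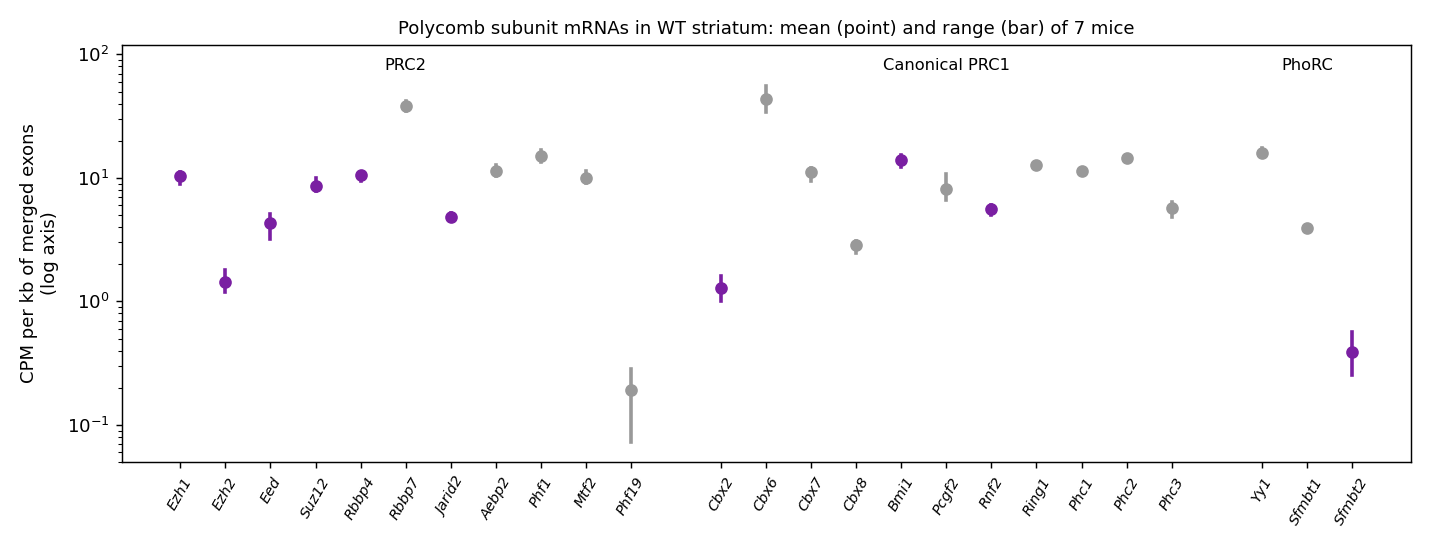
Level of Polycomb subunit mRNAs in WT striatum in CPM per kb of merged exons on a log axis, with the mean (point) and range (bar) of 7 mice. Purple marks the 10 genes described and grey their partners. Ezh1 (10.4) lies well above Ezh2 (1.45), and Sfmbt2 (0.387) lies below Sfmbt1 (3.92).

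Ezh1 was the prevailing PRC2 methyltransferase mRNA in every mouse. The per-length ratio of Ezh1 to Ezh2 was 7.23 in WT (mean log2 ratio 2.85 ± 0.22, SD, n = 7), 7.13 in E1 (2.83 ± 0.30, n = 4) and 8.60 in KI-96 (3.10 ± 0.25, n = 4). The 3 ranges overlapped. With the longest transcript as length the WT ratio was 5.34.

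Apart from Bmi1 and Pcgf2, the other pairs were tilted the other way. Rbbp4 stood at 0.277 of its paralog Rbbp7 per length in WT, and Rnf2 lay below Ring1, the other catalytic subunit of PRC1, by a mean log2 ratio of -1.18. Jarid2 stood at 0.423 of Aebp2, its partner in the same form of PRC2, and Sfmbt2 at 0.0957 of Sfmbt1. Bmi1 was 1.72 times its paralog Pcgf2. Among the Cbx proteins, which compete for 1 place in canonical PRC1, Cbx6 led at 43.1 CPM per kb, and Cbx7 (11.1), Cbx8 (2.86) and Cbx2 (1.28) were lower.

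**Figure D2:**
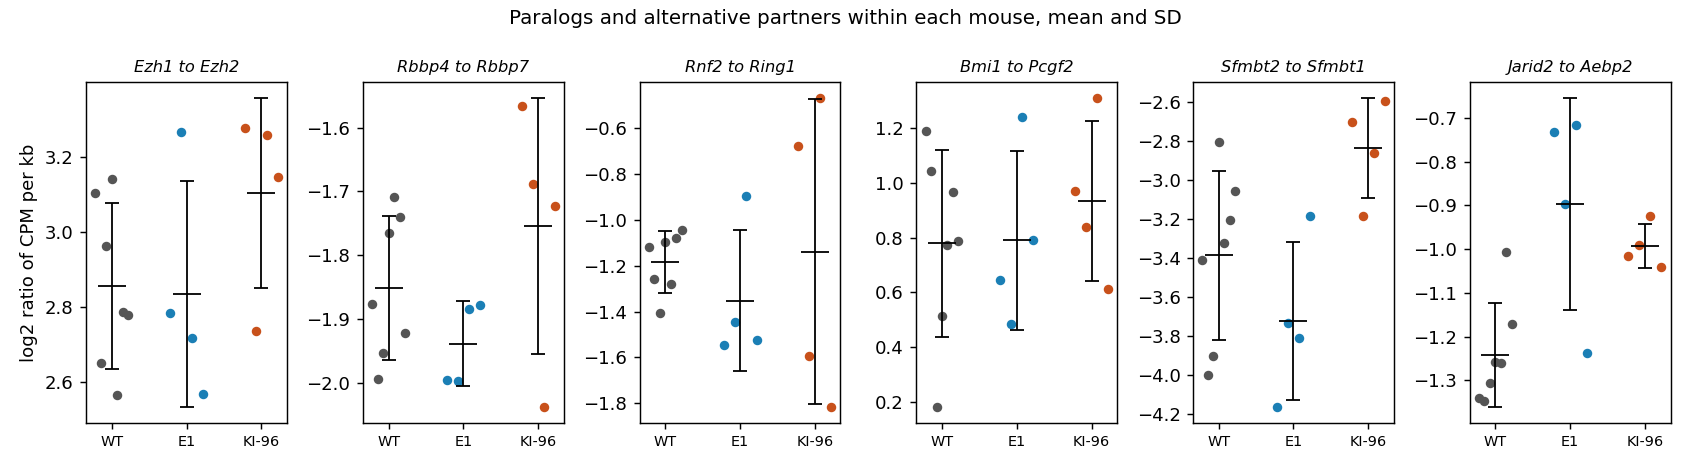
log2 ratio of CPM per kb within each mouse for 6 pairs of paralogs or alternative partners, by genotype, with the mean and SD in black. Ezh1 exceeds Ezh2 in all 15 mice. The Jarid2 to Aebp2 ratio of WT (-1.35 to -1.01) is exceeded by 3 of 4 E1 mice, and the Sfmbt2 to Sfmbt1 ratio is highest on average in KI-96.

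The 10 genes were then compared between genotypes, to ask whether either mutant striatum had altered Polycomb expression. None of the 10 passed an adjusted p of 0.05 in edgeR's quasi-likelihood test (Benjamini-Hochberg over 18278 genes) in any of the 3 comparisons. Across all genes 0.00547% passed in E1 against WT, 0% in KI-96 against WT and 0% in KI-96 against E1. At an unadjusted p under 0.05 there was 1 of 10 members in each comparison, Jarid2 in E1 against WT and Sfmbt2 in both others. The share of all genes at that level was 8.75%, 10.5% and 14.3%, so the members' share of 10% was near the background. DESeq2 called 58, 72 and 206 genes in the 3 comparisons and 1 member, Sfmbt2 in KI-96 against E1 (adjusted p = 0.0394), and limma-voom called 2, 1 and 0 genes and no member.

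Median log2 fold changes of the 10 members were -0.00012 in E1 against WT, -0.02 in KI-96 against WT and -0.03 in KI-96 against E1, beside -0.0019, -0.01 and -0.0037 over all genes tested. The 95% intervals of 8, 8 and 7 members lay wholly between log2 fold changes of -0.5 and 0.5, where 48.1%, 47.3% and 36.8% of all genes had such an interval. These shares were not matched for level, on which the spread depends. The median biological coefficient of variation was 12.6% in genes near Ezh1 in level and 24.7% in genes near Sfmbt2. Bulk tissue cannot tell fewer cells of a type from less RNA per cell.

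**Figure D3:**
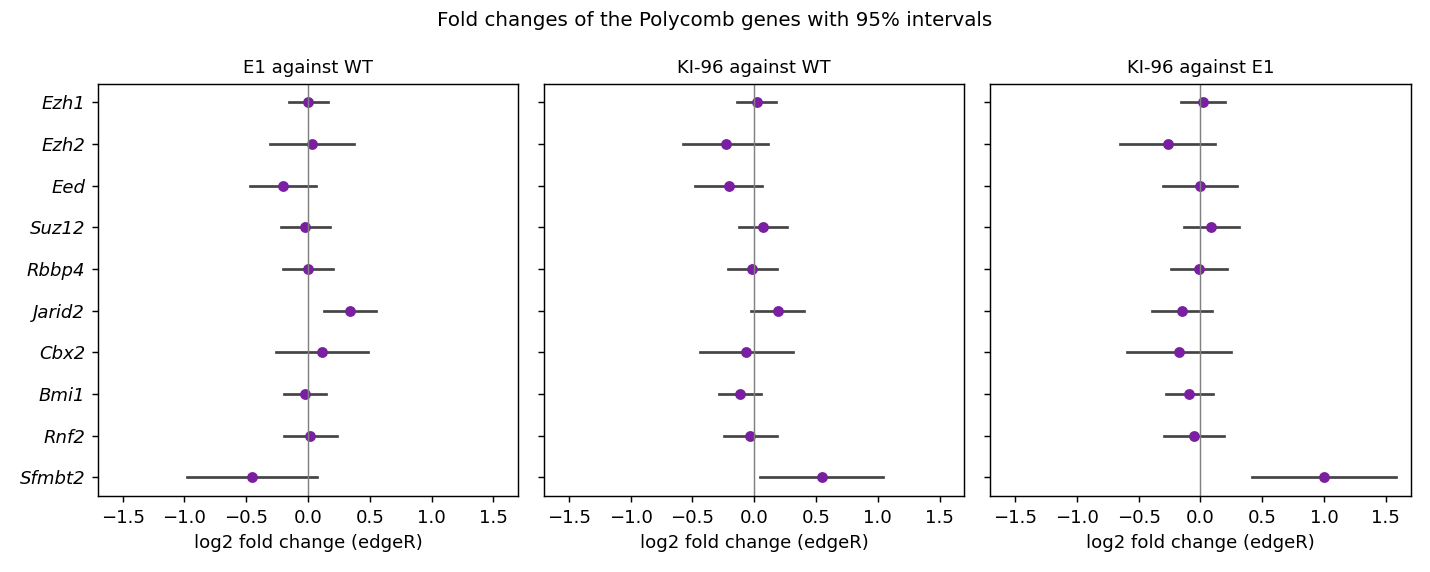
log2 fold change (point) and 95% interval (bar) of the 10 Polycomb genes from edgeR in the 3 comparisons. Intervals of Ezh1, Suz12, Rbbp4, Bmi1 and Rnf2 are narrow and span 0 throughout, while those of Jarid2 in E1 against WT (0.13 to 0.55) and of Sfmbt2 in both KI-96 comparisons lie above 0.

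Among the PRC2 enzymes, Ezh1 (chromosome 11, 101191115 to 101226463, build GRCm38) had 65.9 to 82.7 CPM in WT (median 78.3). In E1 replicates 1 to 4 it had 80.1, 75.2, 74.0 and 79.4 CPM, and in KI-96 replicates 1 to 4 79.3, 77.1, 83.8 and 73.1. The groups overlapped throughout, and the lowest mouse was a WT, replicate 7. Log2 fold changes against WT were 0.0011 for E1 (SE 0.07, 95% interval -0.16 to 0.16) and 0.02 for KI-96 (SE 0.07, -0.14 to 0.18). The intervals reached 0.897-fold down in E1 and 1.13-fold up in KI-96. Ezh1 was also the steadiest member. Its biological coefficient of variation in the fit was 9.77%, and 4.6% of the 500 genes nearest to it in mean level had a lower one.

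Ezh2 (chromosome 6, 47530139 to 47595341) had 7.97 to 11.9 CPM in WT (median 9.52), from 138 to 299 reads. E1 replicates 1 to 4 had 10.5, 7.02, 10.1 and 12.0 CPM. KI-96 replicates 1 to 4 had 7.35, 10.4, 7.86 and 7.41 CPM, so 3 of 4 KI-96 mice lay below the lowest WT mouse. Those gaps were within counting error, which was 9.95% at the lowest Ezh2 count of 101 reads. The log2 fold change of KI-96 against WT was -0.23 (SE 0.16, edgeR adjusted p = 0.640, exact permutation p = 0.152, two-sided). For E1 it was 0.04 (SE 0.16, adjusted p = 0.961). With Y-linked reads as a covariate, which leaves WT replicate 1 (7.99 CPM) as the comparison for both mutants, the KI-96 value was 0.05 and the E1 value 0.31.

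A list of 15 genes of dividing cells, which does not hold Ezh2, was set beside it. Its summed level was 72.5 to 95.8 CPM in WT, 80.5 to 130 in E1 and 62.2 to 84.6 in KI-96, and all 15 genes had reads in every library. Of the genes tested, symbols of predicted genes left out, Birc5 followed Ezh2 most closely in log2 CPM over the 15 libraries. Birc5 is a mitotic survival factor from that list (Pearson r = 0.84, and 0.84 after the group means were removed). With Birc5, r was 0.15 for Ezh1, 0.57 for Eed, 0.63 for Cbx2 and -0.70 for Sfmbt2 (-0.55 after the group means were removed). Birc5 was picked as the highest of the genes searched, so its r is given as a description. Searched in the same way, the best match of Eed had r = 0.84, that of Ezh1 0.85 and that of Sfmbt2 0.98. These coefficients describe 15 libraries that share tissue and genotypes, and Birc5 itself averaged 0.917 CPM in WT. The part of dividing cells in the Ezh2 values was not tested.

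Eed (chromosome 7, 89954654 to 89980983) had 12.2 to 19.5 CPM in WT (median 16.6). E1 mice had 13.5, 12.8, 14.5 and 16.3 CPM and KI-96 mice 14.3, 13.4, 14.1 and 15.2, all within the WT range and none above the WT median. By edgeR the log2 difference from WT was -0.20 for E1 (adjusted p = 0.647) and -0.21 for KI-96 (adjusted p = 0.579), with an SE of 0.13 for each. These 2 comparisons share the WT mice. With Y-linked reads as a covariate the values were -0.01 and -0.02, WT replicate 1 having 14.4 CPM.

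Suz12 (chromosome 11, 79993106 to 80034123) had 38.4 to 49.7 CPM in WT, 35.7 to 46.2 in E1 and 39.8 to 48.6 in KI-96. Rbbp4 (chromosome 4, 129307100 to 129335370) had 82.4 to 96.1 CPM in WT and 89.0 to 93.9 in E1. KI-96 spread more widely for Rbbp4, with 108, 97.7, 69.4 and 89.3 CPM in replicates 1 to 4, the lowest being replicate 3. Log2 fold changes against WT were -0.02 (SE 0.09) and 0.07 (SE 0.09) for Suz12, and -0.0013 (SE 0.10) and -0.01 (SE 0.10) for Rbbp4 in E1 and KI-96. Without KI-96 replicate 3 the Rbbp4 value of KI-96 was 0.10. Of the merged exons of Rbbp4, 18% overlap the genes Sync and Gm26722 on the other strand, and processed pseudogenes of Rbbp4 exist. Its level is less certain for both reasons, the strand setting of the counting being unknown here.

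Jarid2 (chromosome 13, 44729474 to 44921643), a PRC2 cofactor that helps bring the complex to chromatin, showed the clearest difference in E1. In WT it lay in a narrow band of 45.2 to 50.3 CPM (median 45.8). E1 replicates 1 to 4 had 70.1, 55.7, 66.5 and 45.2 CPM. KI-96 replicates 1 to 4 had 54.1, 55.3, 57.6 and 47.4 CPM. In each mutant 3 of 4 mice exceeded every WT mouse, and E1 replicate 4 lay just below the lowest of them.

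The E1 mean of Jarid2 exceeded the WT mean by 0.34 on the log2 scale (SE 0.10, 1.27-fold, edgeR adjusted p = 0.448, exact permutation p = 0.0242 over 330 splits). For KI-96 against WT it was 0.19 (SE 0.10, adjusted p = 0.518, exact permutation p = 0.0121), and 0.15 without KI-96 replicate 3. KI-96 against E1 gave -0.15 (SE 0.11, adjusted p = 0.559). Without E1 replicate 4 the E1 value was 0.45 with an adjusted p of 0.0202, in a fit that called 257 genes in all. Without E1 replicate 1 it was 0.25. Over all settings tried the adjusted p of E1 against WT ranged from 0.0202 to 1.00.

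Jarid2 was as low in WT replicate 1 (45.3 CPM), the WT library without Y-linked reads, as in the others. Of the libraries with high cortical markers, WT replicate 3 had 45.3 CPM of Jarid2 and E1 replicates 2 and 3 had 55.7 and 66.5, while the highest, E1 replicate 1, did not have high cortical markers. With both E1 libraries of high cortical markers and WT replicate 3 left out the log2 fold change was 0.29. That left E1 replicates 1 and 4, the highest (70.1 CPM) and the lowest (45.2 CPM) of the E1 mice. The part of sex or of cortical tissue in the Jarid2 values was not tested, and no WT library other than replicate 1 lacked Y-linked reads. Predicted genes left out, the gene whose level followed Jarid2 most closely was Clmp, which encodes an adhesion molecule (r = 0.96, and 0.93 without the group means). Clmp had 18.7 ± 1.98 CPM in WT (SD, n = 7), 33.3 ± 11.1 in E1 and 26.5 ± 4.21 in KI-96 (n = 4). Clmp, like Jarid2, was lowest within E1 in replicate 4. It was chosen as the highest of the genes searched. Jarid2 itself was less steady in E1 (SD 11.3 CPM) than in WT (SD 2.04 CPM).

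**Figure D4:**
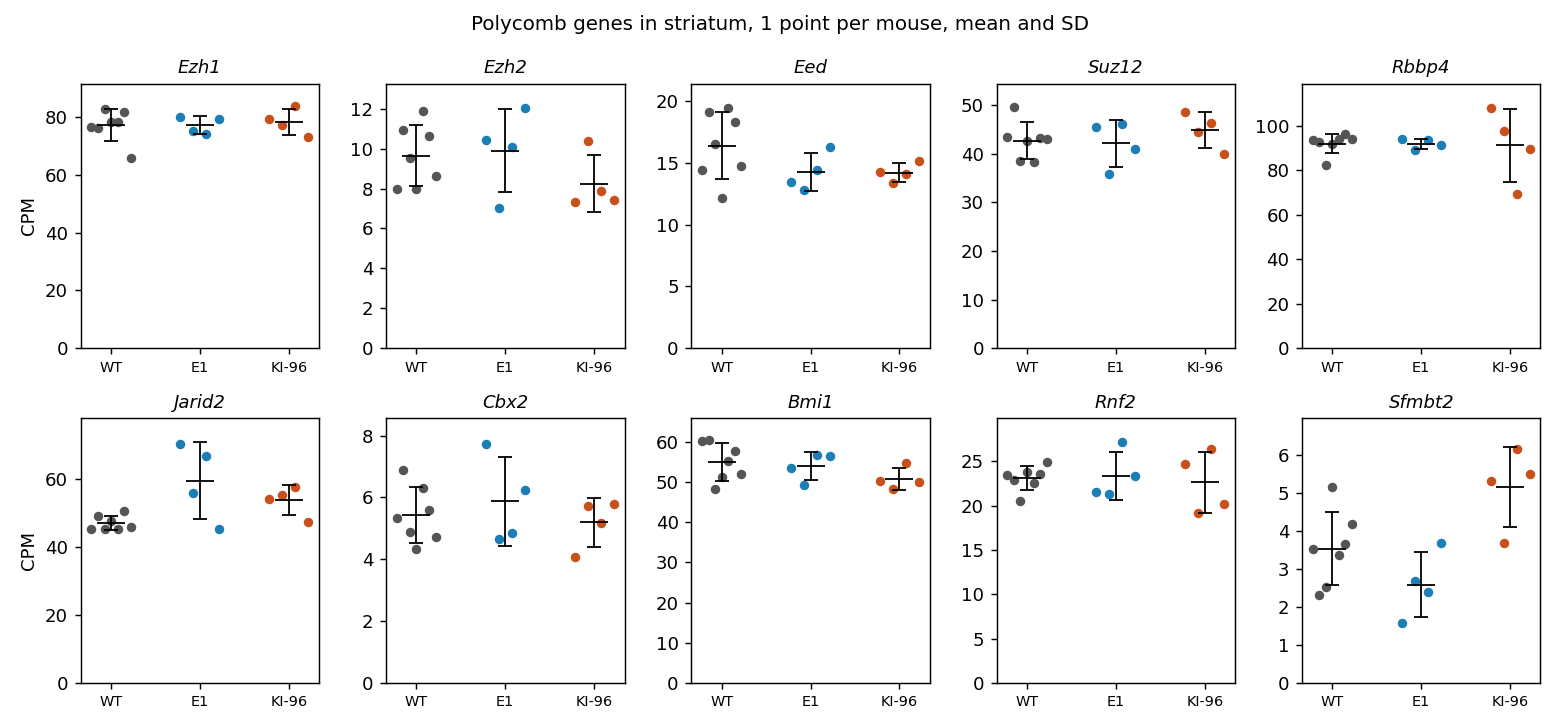
CPM of the 10 Polycomb genes, 1 point per mouse, by genotype, with mean and SD in black and axes from 0. Jarid2 lies within 45.2 to 50.3 CPM in WT and reaches 70.1 in E1, and the 4 KI-96 mice lie above the 4 E1 mice for Sfmbt2.

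Canonical PRC1 is represented by Bmi1, Rnf2 and Cbx2. Bmi1 (chromosome 2, 18677018 to 18686629), which stimulates the ubiquitin ligase and represses Cdkn2a, had 48.3 to 60.3 CPM in WT, 49.4 to 56.6 in E1 and 48.4 to 54.6 in KI-96. Its log2 fold changes against WT were -0.03 for E1 and -0.11 for KI-96 (SE 0.08 for each). With Y-linked reads as a covariate they were -0.16 and -0.25. Rnf2 (chromosome 1, 151458004 to 151500955) had 20.5 to 24.9 CPM in WT, 21.3 to 27.2 in E1 and 19.2 to 26.4 in KI-96, with log2 fold changes of 0.02 and -0.03 (SE 0.10 for each). The groups overlapped for both genes. The biological coefficient of variation of Bmi1 was 10.4%, with 12.4% of genes of like level lower, and that of Rnf2 was 12.4%.

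Cbx2 (chromosome 11, 119022962 to 119031270) was counted from 56 to 157 reads per library. It had 4.32 to 6.89 CPM in WT (median 5.33), 7.74, 4.66, 4.84 and 6.25 CPM in E1 replicates 1 to 4, and 4.07, 5.73, 5.19 and 5.79 in KI-96. The log2 fold changes were 0.11 for E1 and -0.06 for KI-96 (SE 0.18 for each), and the intervals reached 1.40-fold up in E1 and 0.739-fold down in KI-96. Among the members Cbx2 varied most closely with Ezh2 (r = 0.67).

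Sfmbt2 (chromosome 2, 10370510 to 10595253), an MBT-repeat protein of the PhoRC type that is imprinted in extraembryonic tissue, was the least abundant member, with 31 to 132 reads per library. WT mice ranged from 2.31 to 5.16 CPM (median 3.53). E1 replicates 1 to 4 had 1.59, 2.70, 2.39 and 3.67 CPM, and KI-96 replicates 1 to 4 had 5.31, 3.69, 6.17 and 5.50. The E1 mice held 1 value below every WT mouse and 1, replicate 4, above the WT median, and 3 of 4 KI-96 mice lay above every WT mouse. The highest E1 mouse (70 reads) and the lowest KI-96 mouse (56 reads) had nearly equal levels, and the gap between the groups was within counting error.

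Between the mutants Sfmbt2 differed 2.00-fold (log2 fold change of KI-96 against E1 1.00, SE 0.28, 95% interval 0.42 to 1.58). By edgeR the adjusted p was 0.206. An exact permutation test gave p = 0.0286, which is as low as 70 splits allow. It was the 1 member of 10 whose groups did not overlap, as was the case for 4.79% of all genes, 2.29% being higher in KI-96. Without KI-96 replicate 3 the log2 fold change was 0.90. DESeq2 gave 1.01 with an adjusted p of 0.0394. Over all settings the log2 fold change ran from 0.82 to 1.22, with adjusted p-values of 0.0394 to 0.539. Against WT it was 0.55 (SE 0.24, adjusted p = 0.429, exact permutation p = 0.0394) in KI-96 and -0.45 (SE 0.25, adjusted p = 0.613, exact permutation p = 0.133) in E1. In neither was there a member without overlap, beside 1.29% and 1.69% of all genes.

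Of the genes tested, predicted ones again left out, Tshz2, a zinc-finger transcription factor, followed Sfmbt2 most closely over the 15 libraries. Pearson r was 0.98, and 0.98 after the group means were removed. Tshz2 had 3.93 ± 1.43 CPM in WT (SD, n = 7), 2.96 ± 1.13 in E1 and 5.70 ± 1.20 in KI-96 (n = 4). Within WT both genes were highest in replicate 4 (Sfmbt2 5.16 and Tshz2 6.67 CPM). Over all 15 mice both were highest in KI-96 replicate 3 (6.17 and 6.77 CPM) and lowest in E1 replicate 1 (1.59 and 1.49 CPM). The relation is therefore present within genotypes as well as between them. It was chosen as the highest of the genes searched and is given as a description.

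**Figure D5:**
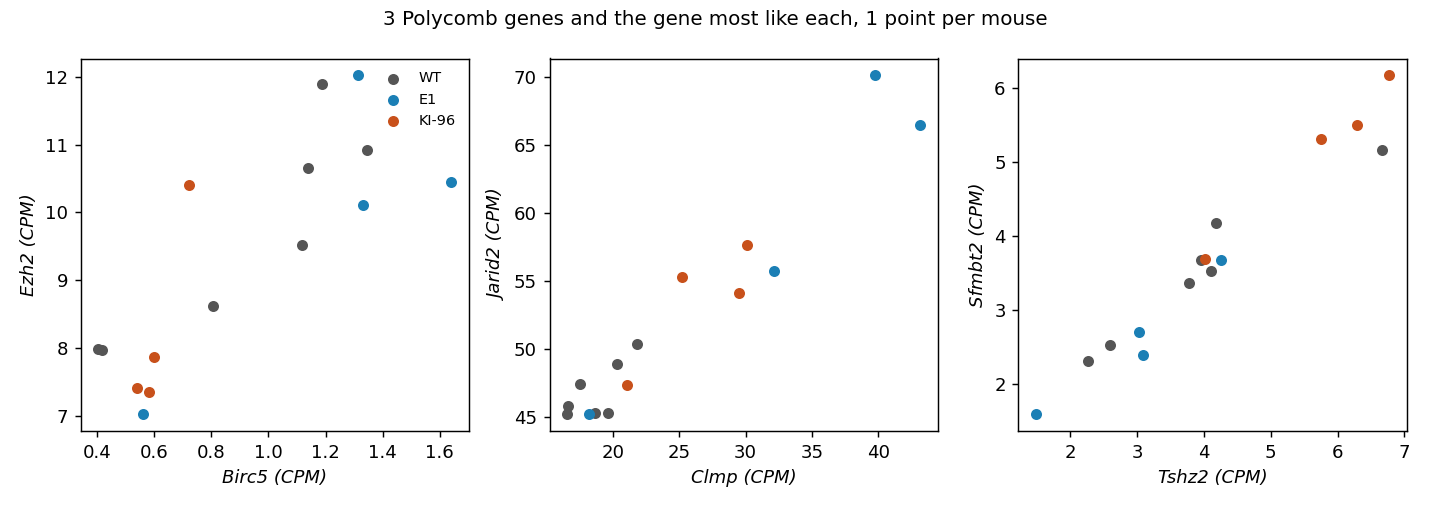
Level of Ezh2, Jarid2 and Sfmbt2 against the gene whose log2 CPM was most like each over 15 libraries, predicted genes left out. Values are in CPM, 1 point per mouse, coloured by genotype. Sfmbt2 and Tshz2 lie close to 1 line across all 3 genotypes (r = 0.98 on the log2 scale), and Jarid2 with Clmp is high in 3 of 4 E1 mice.

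The other genes of the pathway were read from lists of PRC2, PRC1, PhoRC, the H2A deubiquitinase PR-DUB, the H3K27 demethylases and the opposing trithorax group. Of 62 such genes that are not members, 61 were tested, and 0 passed the adjusted threshold of edgeR in any comparison. At an unadjusted p under 0.05 there was 1 in E1 against WT (higher), 8 in KI-96 against WT (7 higher, 1 lower) and 10 in KI-96 against E1 (5 higher, 5 lower), that is 1.64%, 13.1% and 16.4%, beside 8.75%, 10.5% and 14.3% of all genes. Without KI-96 replicate 3 the counts in the KI-96 comparisons were 6 (4 higher, 2 lower) and 5 (3 higher, 2 lower), and without KI-96 replicate 4 they were 17 (11 higher, 6 lower) and 32 (19 higher, 13 lower). The latter are 27.9% and 52.5% of the 61, beside 17.9% and 21% of all genes in the same fit. For these 61 the median log2 fold changes were -0.02, 0.07 and 0.05.

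Among the paralogs of members, Cbx8 had 9.09 to 11.3 CPM in WT, 11.1 to 15.4 in E1 and 11.5 to 13.8 in KI-96. Its log2 fold change was 0.28 (SE 0.11) in both, with edgeR adjusted p-values of 0.508 and 0.391 and exact permutation p-values of 0.00909 and 0.00303. The KI-96 and WT mice did not overlap for Cbx8, nor for Yaf2, as was the case for 1.29% of all genes. Both gaps were narrow. For Cbx8 the highest WT mouse had 11.3 CPM and the lowest KI-96 mouse 11.5. For Yaf2 the highest KI-96 mouse had 60.16 CPM and the lowest WT mouse 60.22. Yaf2, a subunit of variant PRC1, was lower in KI-96 (-0.27, SE 0.10, edgeR adjusted p = 0.376) and was chosen after its values were seen. Cbx6 had a log2 fold change of 0.41 (SE 0.17) in KI-96 against WT, where replicate 3, the library that stood apart on the first principal component, reached 921 CPM and the other KI-96 mice 469 to 548, beside 363 to 593 in WT. Without that replicate the value was 0.15.

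Rbbp7, the paralog of Rbbp4, had 94.9 to 107 CPM in KI-96, 112 to 125 in E1 and 102 to 123 in WT. KI-96 and E1 did not overlap (log2 fold change -0.21, SE 0.09, edgeR adjusted p = 0.283), as was the case for 4.79% of all genes. Against WT the log2 fold changes of E1 and KI-96 were -0.03 and -0.06 for Aebp2, -0.03 and -0.26 for Pcgf2, 0.19 and -0.03 for Ring1, -0.12 and 0.03 for Sfmbt1, and 0.13 and 0.11 for Cbx7. Adjusted p-values of these were 0.520 or more. Leaving out KI-96 replicate 3 turned the KI-96 value to 0.11 for Ring1 and -0.09 for Sfmbt1, and leaving out replicate 4 gave -0.23 for Ring1 and -0.0082 for Cbx7.

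Of the genes outside these pairs, those with the smallest p-values were named. Bcor and Bcorl1, corepressors of variant PRC1, had log2 fold changes of 0.31 (SE 0.10) and 0.35 (SE 0.11) in KI-96 against WT, both with an adjusted p of 0.343. Kmt2d, a trithorax methyltransferase, had 0.47 (SE 0.16) there and 0.59 (SE 0.18) against E1, with 321, 305, 581 and 258 CPM in KI-96 replicates 1 to 4 and 226 to 286 in WT. Replicate 3 carried much of that difference, and without it the values of Kmt2d were 0.16 against WT and 0.28 against E1. Foxk1, a PR-DUB partner, had 0.35 (SE 0.12, edgeR adjusted p = 0.235) in KI-96 against E1. Hcfc1, also of PR-DUB, had 117 to 139 CPM in E1 and 126 to 155 in WT.

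Kdm6a, an X-linked H3K27 demethylase that escapes X inactivation, differed within WT along with the Y-linked reads. It had 53.1 CPM in WT replicate 1 and 31.7 to 38.8 in the other 6 WT mice, which carried Y-linked reads. All 8 mutant mice, from 38.9 to 52.5 CPM, lay above those 6, the lowest mutant mouse (38.9) only just above the highest of the 6 (38.8). Within WT the difference rests on 1 mouse. Its log2 fold changes were 0.24 (SE 0.12) in both mutants against WT and 0.0070 (SE 0.14) between them. Bcor, Bcorl1, Rbbp7 and Hcfc1 are X-linked as well. The part of sex in the values of Kdm6a and of these genes was not tested.

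As a readout of Polycomb silencing, 32 developmental and cell cycle genes that Polycomb holds silent in most differentiated cells were counted. Of these 6 had no read in any library, 20 had fewer than 10 reads over all 15 libraries and 3 passed the filter. The summed level was 7.18 ± 2.28 CPM in WT (SD, n = 7), 8.09 ± 2.70 in E1 and 7.29 ± 2.78 in KI-96 (n = 4), with ranges of 5.17 to 10.9, 5.25 to 11.7 and 4.22 to 10.9. These sums overlapped almost wholly.

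Sox17, which endothelial cells express, and Otx2, which choroid plexus expresses, made up 77.5% of those reads. Cdkn2a, the cell cycle inhibitor locus that Bmi1 represses, had 0 to 6 reads per library. Its neighbour Cdkn2b had 3 to 18 reads, with log2 fold changes of 0.57 (SE 0.41, edgeR adjusted p = 0.682) in E1 and 0.17 (SE 0.42, adjusted p = 0.913) in KI-96. At these counts a difference in Cdkn2a was not detectable.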

How the data were processed

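The deposited values are raw counts, whole reads for each gene in each of 15 mice, with unequal totals and no scaling by the authors. STAR, HTSeq, DESeq2 1.24.0 and GRCm38 are listed in the submitters' processing notes without role or setting, and neither annotation release nor strandedness is given in the sources used here. A symbol was found for 54079 of the 54232 identifiers. Coordinates, exon lengths and overlaps come from GENCODE annotation of build GRCm38.

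Genes were filtered by edgeR 4.0.16 (minimum count 10 by group), scaled by TMM and fitted with a robust quasi-likelihood model of genotype over 15 libraries, two-sided. CPM uses the TMM library sizes, and log2 CPM a prior count of 2. Standard errors were taken from the log2 fold change and its F statistic. Exact permutation tests used log2 CPM of the 2 groups compared, and their smallest p is 0.00303 for 4 against 7 and 0.0286 for 4 against 4 mice. The members and lists were chosen with earlier results of these data known. Named were the 10 members, their paralogs, the 3 other Polycomb genes of smallest p in each comparison and the most abundant targets. For each member the gene with the highest Pearson r was also named, symbols of predicted genes left out (shown for 3). A result on 1 paralog is not reported here.

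Alternatives were DESeq2 1.42.0, limma-voom (limma 3.58.1), other scalings, no filter, 2 groups only, covariates, a replicate block, and leaving out libraries. No 2 mice of a genotype (33 pairs) were alike to within counting noise. Tested on simulated data with 200 changed genes, edgeR recovered 37.9%, 65.7% and 75.8% of 1.5-, 2- and 3-fold changes in E1 against WT among 18000 genes, with 7 of 126 calls false. In KI-96 against WT (17983 genes) the shares were 33.3%, 70.8% and 84.8%, and in KI-96 against E1 (17990 genes) 28.8%, 50.0% and 80.0%.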

Additional observations from a re-analysis of the deposited data

Results flagged for a closer look

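A sample standing far from the others of its group by Dixon's criterion was found in 5 of 57 groups of values (19 genes in 3 genotypes), where chance flags about 1 group in 20. Ezh1 was 65.9 CPM in WT replicate 7, and 76.3 to 82.7 in the other WT mice. Rbbp4 was 82.4 CPM in WT replicate 3, one of the libraries with high cortical markers, and 91.6 to 96.1 in the others. Ezh2 was 10.4 CPM in KI-96 replicate 2, and 7.35 to 7.86 in the other KI-96 mice, so the lower KI-96 mean of Ezh2 comes from those 3 mice. Aebp2 was 98.8 CPM in KI-96 replicate 4, and 110.9 to 111.4 in the others. Sfmbt1 was 42.4 CPM in KI-96 replicate 3, the library that stood apart on the first principal component, and 31.4 to 32.7 in the others.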

How the results depend on the processing

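Of 750 member fold changes recomputed under 25 settings, 2 passed the threshold: Jarid2 in E1 against WT without E1 replicate 4 (0.45) and Sfmbt2 in KI-96 against E1 with DESeq2 (1.01). The sign differed from the reported one in 61, none of them at an unadjusted p under 0.05 in either fit; the largest reported size among these was Ezh2 in KI-96 against WT (-0.23). Leaving out each library for the named genes outside the members, an alternative chosen after seeing the data, brought none past the threshold. The number of genes called depended on the processing. For E1 against WT it was 1, and 58 with DESeq2, 2 with limma-voom, 4 with the replicate block, and 0 with library totals, with no filter, with the 2 groups only, with either covariate, and when the 3 libraries of high cortical marker levels were dropped. Leaving out 1 library gave 0 to 257 (257 without E1 replicate 4, 12 without WT replicate 1). For KI-96 against WT it was 0 (1916 genes at an unadjusted p under 0.05), and 72 with DESeq2, 1 with limma-voom, 1 with no filter and 6 with the replicate block; leaving out 1 library gave 0 to 11 (11 without WT replicate 1, 2 without KI-96 replicate 3 or 4). For KI-96 against E1 it was 0 (2607 unadjusted), and 206 with DESeq2, 3 with no filter and 1 with Y-linked reads as covariate; leaving out 1 library gave 0 to 190 (190 without E1 replicate 4, 128 without KI-96 replicate 4). The cause was not tested. The replicate block changed no member's call. Same-numbered mice do not share an animal, and the numbers were not taken as a pairing. The correlations of the deviations of same-numbered mice ran from -0.10 to 0.19 in 12 pairs, with 5 over 0.1. Of 12 libraries 6 correlated best with their own number, and a batch shared by number was not tested. Other scalings moved the median of all genes by less than 0.1 on the log2 scale.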
